A study of Rattus norvegicus with 9 samples.

Results

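The 10 genes described here form the BMP and activin signalling set of cultured rat pancreatic stellate cells: the ligands Bmp2, Bmp4, Bmp6 and Inhba, the secreted antagonists Grem1 and Fst, and the pathway targets Id1, Id2, Id3 and Smad6. They were taken by symbol from the array's probe table, and each was read by exactly 1 row of the value table that carries a single gene symbol. They are 10 of the 14506 genes measured in that way. Pancreatic stellate cells are the fat-storing, collagen-producing mesenchymal cells of the pancreas, which take on a myofibroblast state when they are cultured on stiff plastic. Cells of male Sprague Dawley rats had been purified on a Nycodenz density gradient, and seeded in 10 cm dishes in IMDM with 10% foetal bovine serum for 72 hours. The surfaces were uncoated plastic, the control (4 arrays), collagen I, the fibrillar collagen of scar tissue (3 arrays), and Matrigel, a gel of basement membrane proteins (2 arrays). Total RNA was hybridised to Affymetrix Rat Gene 1.0 ST arrays, and values are deposited log2 intensities, so that a difference of 1 is a doubling. The sample titles carry a letter, A, P, S or Z on plastic, A, P or Z on collagen and A or S on Matrigel, whose meaning the labels do not give. Animal ages, and whether arrays of a surface came from separate animals or cultures, are not stated, so what the p-values weigh is the spread among these 9 samples, which may be technical.

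Bone morphogenetic proteins (BMPs) and activins are secreted dimers of the TGF-beta superfamily that bind pairs of type I and type II receptor kinases. BMP receptors phosphorylate SMAD1, SMAD5 and SMAD9, activin receptors phosphorylate SMAD2 and SMAD3, and both groups join SMAD4 to enter the nucleus. The Id genes and Smad6 are classical direct targets of the BMP branch, gremlin 1 binds and blocks BMPs, and follistatin binds and blocks activins. In pancreatic and hepatic stellate cells, activin A is known as an autocrine signal of the myofibroblast state.

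Across the set, Bmp6 was lower on both matrices than on plastic, Bmp2 was higher on both, Id2 and Fst were higher on collagen, Grem1 was lower on Matrigel, and Id1 was higher on Matrigel. Inhba was higher on collagen in each pair of arrays that share a letter, a difference that missed the threshold in the fit without the letter. It passed with the letter as a fixed block, but not with the letter as a random block. Bmp4, Id3 and Smad6 passed in none of the 3 comparisons, with unadjusted p between 0.0640 and 0.707. The test was limma's moderated test over all 9 arrays and all 14506 genes, with Benjamini-Hochberg adjustment, two-sided, and a gene was called past the threshold at an adjusted p under 0.05. In Matrigel against plastic, 4 of the 10 genes passed (2 higher and 2 lower) beside 10.4% of all genes (4.52% higher and 5.85% lower). In collagen against plastic, 4 passed (3 higher and 1 lower) beside 6.12% of all genes (2.95% higher and 3.17% lower). In Matrigel against collagen, 3 passed, all lower on Matrigel, beside 2.67% of all genes (1.21% higher and 1.45% lower). The median absolute difference of the 10 genes was 0.53, 0.65 and 0.40 in these comparisons, in the same order, beside 0.13, 0.10 and 0.12 over all genes. The median signed difference was 0.06, 0.24 and -0.30 beside -0.01, 0.00 and -0.02. The 3 comparisons share arrays pairwise, since they are the 3 contrasts of 3 groups. The 10 genes were chosen with earlier results of these data known, so these counts and medians are no test of the set. All genes also include the 40% with the lowest mean levels, among which only 1 of the 10 genes lies.

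**Figure D1:**
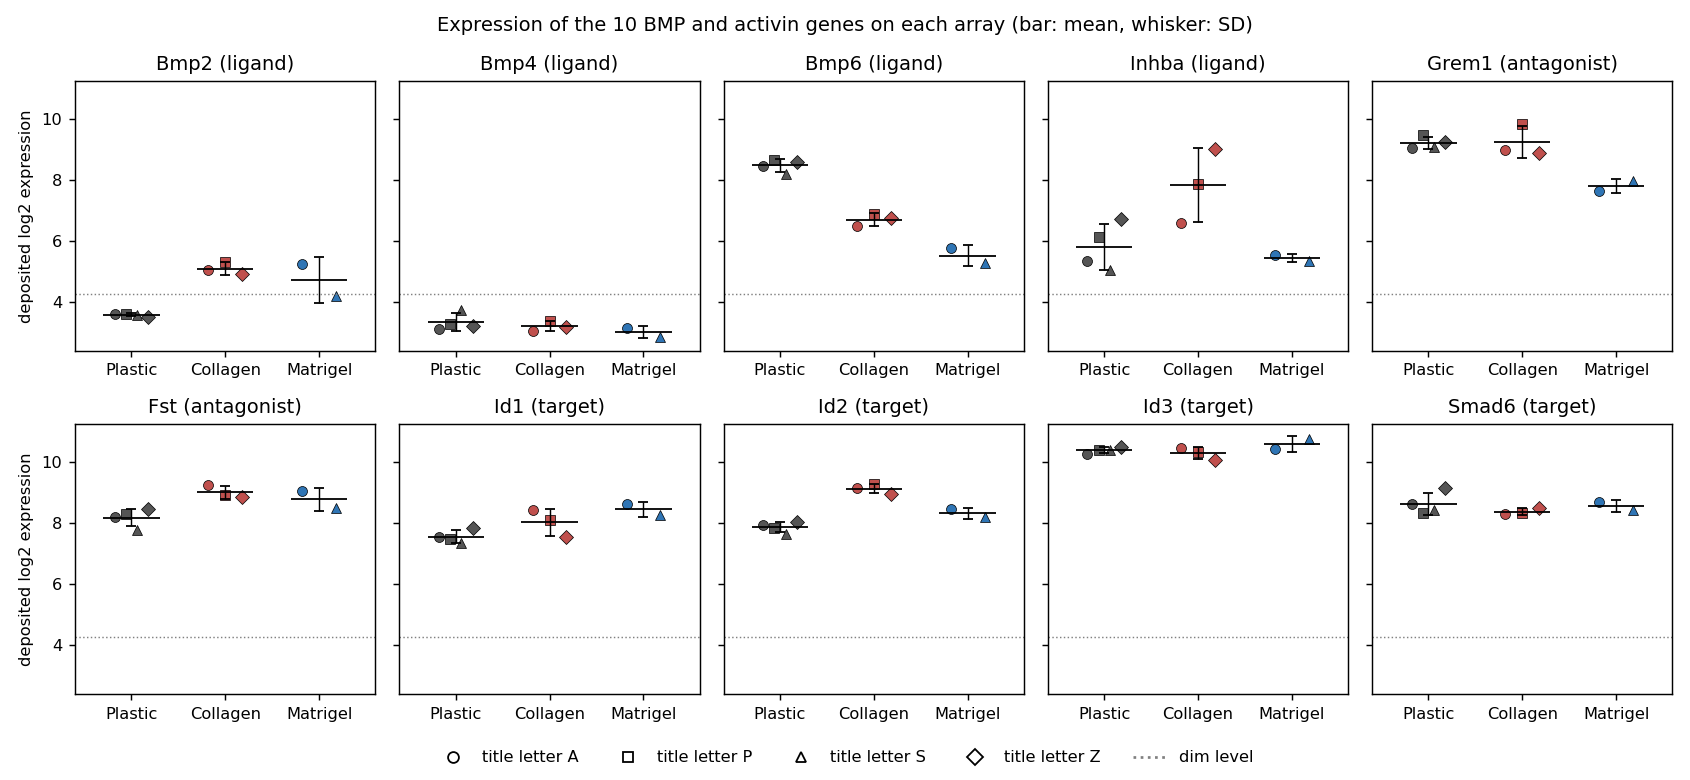
Deposited log2 intensity of each of the 10 genes on every array, by surface: each point is 1 array (its shape is the title letter), the bar and whisker are the mean and SD of the 4 plastic, 3 collagen or 2 Matrigel arrays, and the dotted line is the level called dim, 4.25. Bmp6 fell from a mean of 8.48 on plastic to 6.70 on collagen and 5.51 on Matrigel with no overlap between groups, whereas Bmp4, Id3 and Smad6 overlapped in all 3 comparisons.

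The counts depended on single arrays. The Matrigel against plastic count went from 4 to 1 without Matrigel replicate 1, and to 2 without plastic replicate 1 or without plastic replicate 4. The Matrigel against collagen count went from 3 to 1 without collagen replicate 1, collagen replicate 2 or plastic replicate 1, and to 0 in limma without Matrigel replicate 2, where 4 members had an unadjusted p under 0.05. The collagen against plastic count was 3 or 4 when any single array was left out.

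The stretches upstream of 4 of the genes are shown because the Id genes are the best known BMP targets of the set, with Id1 and Id2 past the threshold and Id3 not, and Grem1 is the antagonist with the larger change. A promoter window was in hand for 7 of the 10 genes, from RefSeq on rat build GRCr8. The bases before the annotated start are printed 5′ to 3′ on the gene's strand, and capitals mark matches to the motifs searched. The windows of Grem1 (chr3:120978320-120978569, minus strand), Id1 (chr3:161671314-161671524, plus strand), Id2 (chr6:47470996-47471245, minus strand) and Id3 (chr5:153656041-153656252, plus strand) lie just outside the annotated gene.
Grem1: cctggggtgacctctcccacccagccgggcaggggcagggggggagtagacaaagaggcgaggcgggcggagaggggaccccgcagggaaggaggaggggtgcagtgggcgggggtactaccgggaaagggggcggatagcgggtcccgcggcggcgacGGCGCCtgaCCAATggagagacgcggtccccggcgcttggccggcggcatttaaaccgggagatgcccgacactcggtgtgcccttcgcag
Id1: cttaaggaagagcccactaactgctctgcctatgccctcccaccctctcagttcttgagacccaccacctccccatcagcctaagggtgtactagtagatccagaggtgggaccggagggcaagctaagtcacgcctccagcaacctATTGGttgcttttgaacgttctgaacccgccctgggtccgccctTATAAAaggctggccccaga
Id2: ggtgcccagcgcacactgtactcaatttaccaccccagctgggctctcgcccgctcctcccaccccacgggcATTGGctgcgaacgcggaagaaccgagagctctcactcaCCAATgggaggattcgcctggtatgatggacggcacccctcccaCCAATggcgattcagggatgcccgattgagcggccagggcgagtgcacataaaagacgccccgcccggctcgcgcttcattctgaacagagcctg
Id3: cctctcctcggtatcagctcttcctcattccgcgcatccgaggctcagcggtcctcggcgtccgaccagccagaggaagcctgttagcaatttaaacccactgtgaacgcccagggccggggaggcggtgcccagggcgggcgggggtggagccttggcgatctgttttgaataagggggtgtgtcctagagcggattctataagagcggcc

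Motifs were searched on both strands in up to 250 bases before the start. GGCGCC, a GC-rich motif that BMP SMADs can bind, was in the Grem1 window and in 8.69% of 33469 rat promoter windows. It was in none of the Id1, Id2 and Id3 windows. The composite BMP-responsive element of SMAD1 and SMAD4 (0.463% of windows), the palindromic SMAD motif GTCTAGAC (0.173%), the cyclic AMP motif TGACGTCA (1.59%) and the AP-1 motif TGANTCA (6.34%) were in none of the 7 windows. Of these, the Bmp4, Bmp6 and Inhba windows lie inside the annotated gene span rather than upstream of it. Of the general promoter elements, TATAAA (12.9% of windows) was in those of Inhba and Id1. CCAAT (34% of windows), printed as ATTGG where the match is on the other strand, was in those of Bmp6, Inhba, Grem1, Id1 and Id2. In the Id2 window CCAAT occurs 3 times, and in the Id1 window 1 CCAAT match lies upstream of TATAAA. These are letter matches in a short window, and they were not tested against the expression values. Sites further upstream were not searched, so a motif absent here may lie outside the window.

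Among the ligands, Bmp6 had the largest range of means. Bmp6 encodes a BMP that signals mainly through the SMAD1 branch and is best known as the regulator of hepcidin in the liver. It read 8.45, 8.65, 8.19 and 8.60 on plastic replicates 1 to 4 (letters A, P, S and Z), 6.48, 6.87 and 6.74 on collagen replicates 1 to 3 (A, P and Z), and 5.76 and 5.26 on Matrigel replicates 1 and 2 (A and S). All 4 plastic arrays lay above all collagen arrays, and these above both Matrigel arrays. The level was 8.48 ± 0.21 on plastic (SD, n = 4), 6.70 ± 0.20 on collagen (n = 3) and 5.51 ± 0.35 on Matrigel (n = 2). Against plastic, Bmp6 was 7.81-fold lower on Matrigel (log2 difference -2.97 ± 0.18, SE, limma adjusted p = 0.000149) and 3.43-fold lower on collagen (-1.78 ± 0.16, adjusted p = 0.000549). Between the matrices it was 2.28-fold lower on Matrigel (-1.19 ± 0.19, adjusted p = 0.0194). The fall from plastic held its call in every alternative, with a difference between -3.22 and -2.72 on Matrigel and between -1.90 and -1.67 on collagen. The step from collagen to Matrigel did not pass without collagen replicate 2 (adjusted p = 0.0760), collagen replicate 3 (0.0561) or Matrigel replicate 2 (0.0777). In bulk RNA of this kind, fewer cells of a type and less RNA per cell cannot be told apart.

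Within letters the Bmp6 difference was of like size. Collagen minus plastic was -1.97 for letter A, -1.78 for P and -1.86 for Z. Matrigel minus plastic was -2.70 for A and -2.93 for S. The check described under the processing bore out the letters as pairs only for collagen and plastic. It could not decide for Matrigel, so the Matrigel values by letter, here and below, are not taken as matched differences. Since the Bmp6 groups did not overlap, no pair of arrays could go the other way. The letter A, the only one on all 3 surfaces, gave -0.72 for Matrigel minus collagen.

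Bmp2 went in the opposite direction. Bmp2 encodes a BMP that drives bone formation and is also made by many injured mesenchymal tissues. It read 3.60, 3.59, 3.57 and 3.50 on the plastic arrays, 5.05, 5.30 and 4.90 on collagen, and 5.23 and 4.17 on Matrigel. The plastic arrays lay close together and below the level called dim here, 4.25, which is the 40th percentile of the mean level over all genes. All collagen and Matrigel arrays lay above all plastic arrays, but the 2 Matrigel arrays differed more from each other than the collagen arrays did, and Matrigel replicate 2 itself lay under the dim level.

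The mean of Bmp2 was 5.08 ± 0.20 on collagen and 4.70 ± 0.75 on Matrigel, against 3.56 ± 0.05 on plastic. Because plastic lay below the dim level, the change is given as a bound, the matrix mean minus the dim level. Bmp2 was at least 0.836 higher on collagen on the log2 scale, or at least 1.79-fold (limma adjusted p = 0.00449). It was at least 0.455 higher on Matrigel, or at least 1.37-fold (adjusted p = 0.0208). The fitted differences, which run to the measured plastic values, were 1.52 ± 0.22 and 1.14 ± 0.24 (SE), and the adjusted p values test these. The bounds carry no allowance for error, and the one on Matrigel rests on replicate 1. The collagen call held in every alternative. The Matrigel call did not: it was lost without Matrigel replicate 1, where the fitted difference was 0.61 (adjusted p = 0.0532), and without plastic replicate 1 (0.0528) or plastic replicate 4 (0.0555). Matrigel minus plastic was 1.64 for letter A and 0.60 for letter S, whereas collagen minus plastic stayed between 1.41 and 1.71 in letters A, P and Z. Between the matrices the fitted difference was -0.38 with a 95% interval from -0.97 to 0.21 (adjusted p = 0.509), and without Matrigel replicate 1 it was -0.91 (adjusted p = 0.0402).

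Inhba, which encodes the subunit of activin A, had the widest spread of the set among the plastic and among the collagen arrays. On plastic it read 5.32, 6.12, 5.05 and 6.71, on collagen 6.58, 7.87 and 9.02, and on Matrigel 5.53 and 5.33. The letter Z arrays were the highest on plastic and on collagen, and the collagen array of letter A lay just under the highest plastic array. All collagen arrays lay above both Matrigel arrays. The collagen mean was 7.82 ± 1.22 and the plastic mean 5.80 ± 0.76, a difference of 2.03 ± 0.57 (SE, 4.07-fold, 95% interval 0.73 to 3.33) that missed the threshold (limma adjusted p = 0.0831). Within letters, collagen minus plastic was 1.26 for A, 1.76 for P and 2.31 for Z. With the letter as a fixed block, the difference was 1.76 and passed (adjusted p = 0.00519). With the letter as a random block, it did not pass. Leaving out 1 array at a time moved the difference without the block between 1.43 (without collagen replicate 3, adjusted p = 0.212) and 2.65 (without collagen replicate 1, adjusted p = 0.0289, the only one of these fits in which it passed). The letters pair collagen and plastic arrays by the correlation check described under the processing.

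On Matrigel, Inhba stood at 5.43 ± 0.14. The Matrigel minus plastic difference was -0.36 ± 0.65 over all arrays (adjusted p = 0.811), but 0.21 for letter A and 0.29 for letter S, the letters that Matrigel has. These letters were not taken as pairing Matrigel and plastic arrays. Matrigel minus collagen was -2.39 ± 0.68, a 5.24-fold lower level with a 95% interval from -3.94 to -0.84 that did not pass after adjustment over all genes (adjusted p = 0.118).

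Bmp4, a BMP of mesoderm and organ development, was dim throughout. It read from 3.10 to 3.74 on plastic, from 3.05 to 3.37 on collagen and from 2.85 to 3.14 on Matrigel, and all groups overlapped. Since each value lay below the dim level, no fold is given. The limma adjusted p was 0.319 for Matrigel against plastic, 0.753 for collagen against plastic and 0.641 for Matrigel against collagen.

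**Figure D2:**
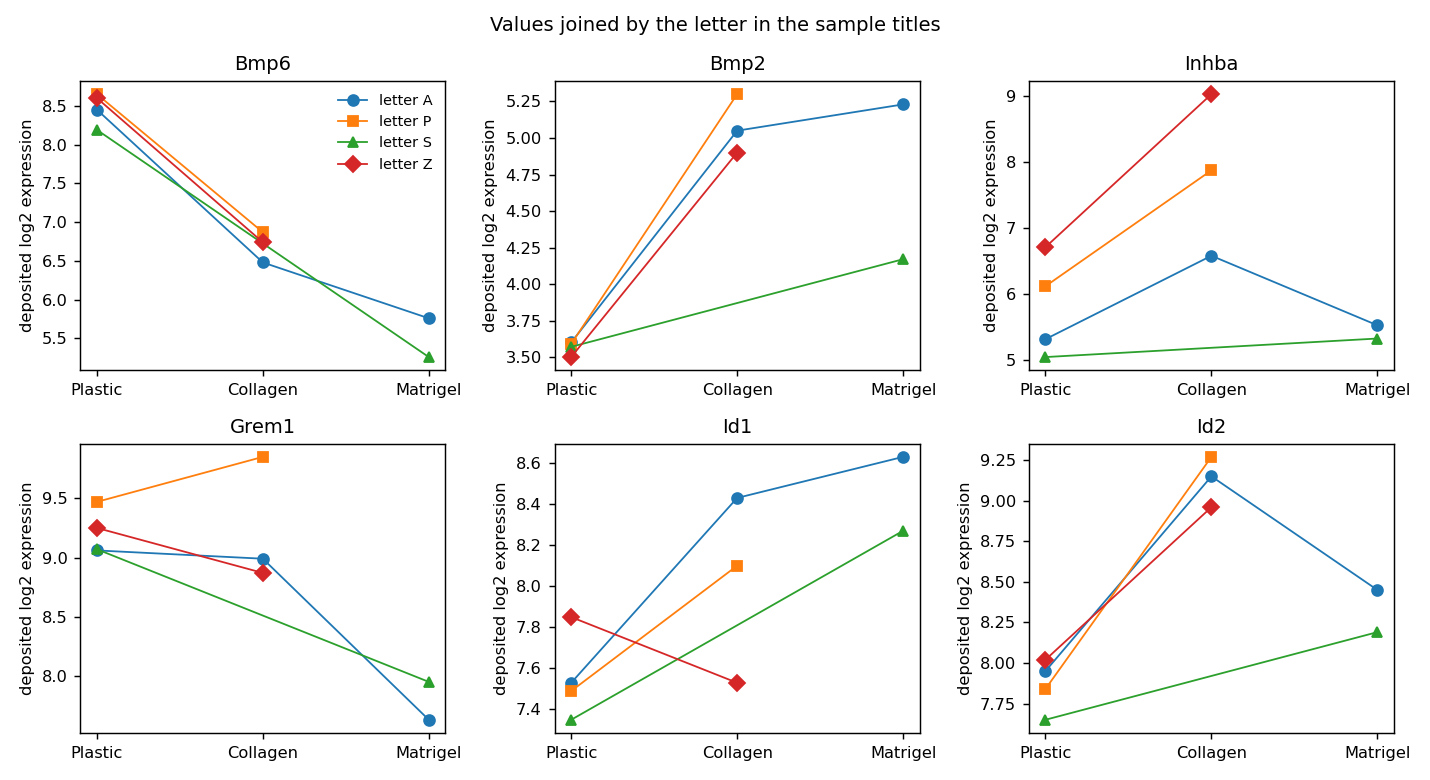
Log2 intensity of Bmp6, Bmp2, Inhba, Grem1, Id1 and Id2 on arrays that share a title letter, joined by lines across plastic, collagen and Matrigel, 1 line per letter, with letter S joined from plastic to Matrigel directly. The vertical axis has its own range in each panel. The Inhba lines of A, P and Z rise from plastic to collagen by 1.26, 1.76 and 2.31, and the Id1 line of letter Z falls by 0.32 where those of A and P rise.

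The antagonists passed in different comparisons, Grem1 on Matrigel and Fst on collagen; the difference between the genes was not tested. Grem1 encodes gremlin 1, a secreted cystine-knot protein that sequesters BMP2, BMP4 and BMP7. Its upstream window, printed above, is the one that carries GGCGCC. It read 9.06, 9.47, 9.07 and 9.25 on plastic, 8.99, 9.85 and 8.87 on collagen, and 7.63 and 7.95 on Matrigel. Both Matrigel arrays lay below every plastic and collagen array, and plastic and collagen overlapped. The means were 9.21 ± 0.20 on plastic, 9.23 ± 0.54 on collagen and 7.79 ± 0.23 on Matrigel. Grem1 was 2.67-fold lower on Matrigel than on plastic (-1.42 ± 0.26, SE, limma adjusted p = 0.0114). Matrigel minus plastic was -1.43 for letter A and -1.11 for letter S. Without Matrigel replicate 1 the difference was -1.26 and missed the threshold (adjusted p = 0.0926). Against collagen it was 2.72-fold lower on Matrigel (-1.44 ± 0.28, adjusted p = 0.03525), a call that 10 of 18 alternatives ended, among them leaving out collagen replicate 1, either Matrigel array or any plastic array. Collagen minus plastic was 0.02 ± 0.23 with a 95% interval from -0.50 to 0.55 (adjusted p = 0.973), and within letters it was -0.07 for A, 0.37 for P and -0.38 for Z.

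Fst encodes follistatin, which binds activins nearly irreversibly. It read 8.19, 8.29, 7.78 and 8.45 on plastic, 9.25, 8.92 and 8.84 on collagen, and 9.05 and 8.50 on Matrigel. All collagen and Matrigel arrays lay above all plastic arrays, with a gap of 0.04 between the lower Matrigel array and the highest plastic array. Fst was 1.77-fold higher on collagen than on plastic (0.83 ± 0.19, SE, limma adjusted p = 0.0396). That call was lost without any 1 of collagen replicates 1 to 3 or plastic replicates 1 to 3, with adjusted p between 0.0643 and 0.128 and differences between 0.69 and 0.91. Collagen minus plastic was 1.06, 0.63 and 0.39 for letters A, P and Z. On Matrigel the difference was 0.60 ± 0.22 (1.51-fold, 95% interval 0.11 to 1.09, adjusted p = 0.129), or 0.86 for letter A and 0.72 for letter S. Between the matrices it was -0.23 with a 95% interval from -0.75 to 0.29 (adjusted p = 0.678).

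**Figure D3:**
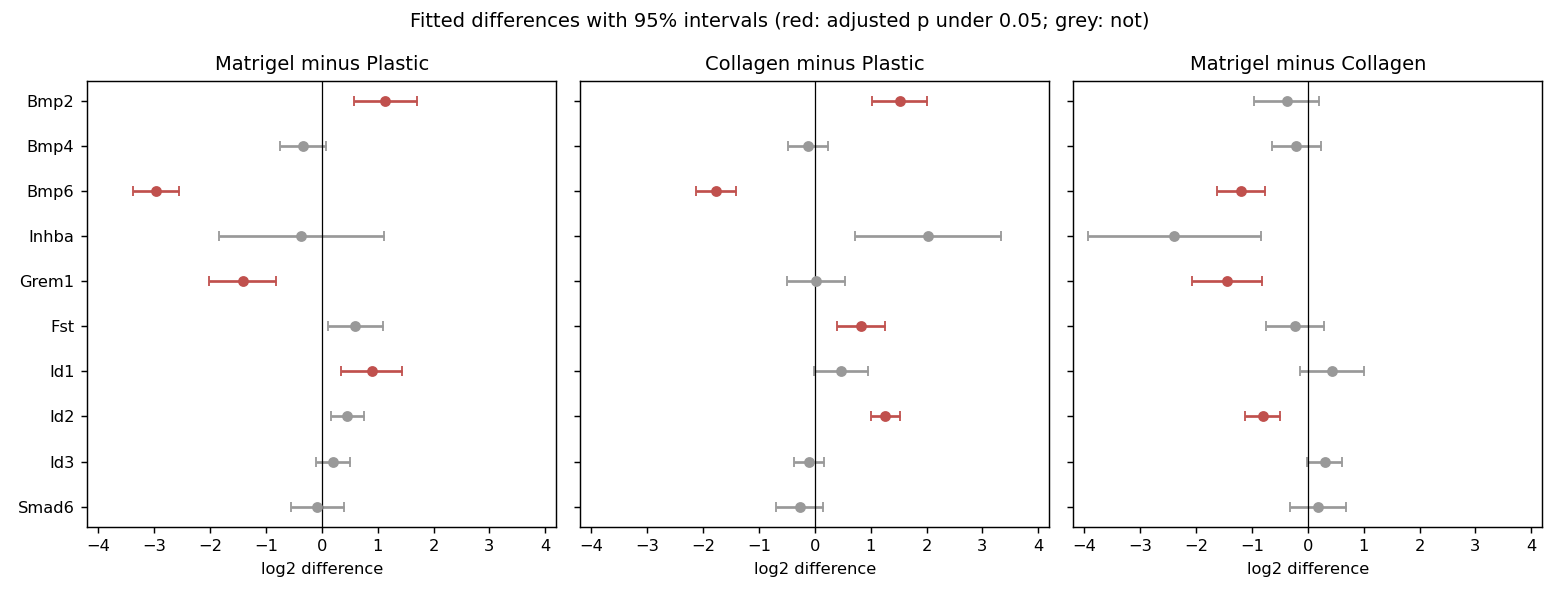
Log2 difference of each of the 10 genes in the 3 comparisons, with its 95% interval from limma (n = 4 plastic, 3 collagen and 2 Matrigel arrays), in red where the adjusted p was under 0.05 and grey otherwise. The Bmp6 interval lies below 0 in all 3 comparisons, from -3.37 to -2.56 in Matrigel against plastic, and the Inhba intervals are the widest, from 0.73 to 3.33 in collagen against plastic.

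The Id genes encode helix-loop-helix proteins without a DNA-binding domain, which hold back differentiation by sequestering their partners. The 3 Id genes measured here, whose upstream windows are printed above, had different results: Id2 passed on collagen, Id1 on Matrigel and Id3 in no comparison, and differences between the genes were not tested. Id2 was highest on collagen. It read 7.95, 7.84, 7.65 and 8.02 on plastic, 9.15, 9.27 and 8.96 on collagen, and 8.45 and 8.19 on Matrigel, so that none of the groups overlapped. Id2 was 2.40-fold higher on collagen than on plastic (1.26 ± 0.12, SE, limma adjusted p = 0.000598), a call kept in every alternative, with differences between 1.19 and 1.35. Within letters, collagen minus plastic was 1.20 for A, 1.43 for P and 0.94 for Z. On Matrigel, Id2 was 1.75-fold lower than on collagen (-0.81 ± 0.14, adjusted p = 0.0251). That call was lost without collagen replicate 1, collagen replicate 2, Matrigel replicate 1, Matrigel replicate 2 or plastic replicate 1 (adjusted p between 0.0512 and 0.106). The Matrigel minus plastic difference was 0.46 ± 0.13 (1.37-fold, 95% interval 0.16 to 0.75, adjusted p = 0.0630), with 0.51 for letter A and 0.54 for letter S.

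Id1 had its highest mean on Matrigel. It read 7.53, 7.49, 7.35 and 7.85 on plastic, 8.43, 8.10 and 7.53 on collagen, and 8.63 and 8.27 on Matrigel. Both Matrigel arrays lay above all plastic arrays, and the collagen arrays spanned both groups, with the letter Z array inside the plastic range. Id1 was 1.86-fold higher on Matrigel than on plastic (0.89 ± 0.24, SE, limma adjusted p = 0.0482), close to the threshold. The call was lost without collagen replicate 2, either Matrigel array or any plastic array (adjusted p between 0.0543 and 0.260). Matrigel minus plastic was 1.10 for letter A and 0.92 for letter S. Collagen minus plastic was 0.47 ± 0.21 (95% interval -0.01 to 0.94, adjusted p = 0.275), and within letters it was 0.90 for A, 0.61 for P and -0.32 for Z.

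Id3 and Smad6 were bright on every surface with small differences. Id3 read from 10.28 to 10.50 on plastic, from 10.07 to 10.47 on collagen, and 10.42 and 10.77 on Matrigel. Its largest difference was 0.30 between Matrigel and collagen, with a 95% interval from -0.02 to 0.62 (limma adjusted p = 0.325). Against plastic it was 0.20 on Matrigel (adjusted p = 0.424) and -0.10 on collagen (adjusted p = 0.732). Smad6 encodes the inhibitory SMAD that limits BMP receptor signalling. It read 8.64, 8.34, 8.42 and 9.15 on plastic, 8.29, 8.32 and 8.50 on collagen, and 8.69 and 8.42 on Matrigel. All groups overlapped, and plastic replicate 4, of letter Z, was the highest array. Collagen minus plastic was -0.27 with a 95% interval from -0.69 to 0.15 (adjusted p = 0.511), and Matrigel minus plastic was -0.08 with an interval from -0.56 to 0.40 (adjusted p = 0.877).

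By mean level, the order was Matrigel, collagen, plastic from low to high for Bmp6, where each neighbouring step passed the test. It was plastic, Matrigel, collagen for Id2, where Matrigel and plastic did not differ past the threshold. For Bmp2 the order was the same, and Matrigel and collagen overlapped. Grem1 had Matrigel lowest, with plastic and collagen overlapping. Fst ran from plastic over Matrigel to collagen, and Id1 from plastic over collagen to Matrigel, in both cases with neighbours that did not pass. Inhba ran from Matrigel over plastic to collagen, with no step past the threshold in the fit without the letter. With the letter as a fixed block the step from plastic to collagen passed (1.76, limma adjusted p = 0.00519), but with the letter as a random block it did not. In both letters that Matrigel shares with plastic, Matrigel was the higher (0.21 for A and 0.29 for S). Those letters were not taken as pairing Matrigel and plastic arrays, so these are not given as matched differences.

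The other genes of the pathway were taken from a list of 96 ligands, modulators, receptors, SMADs and targets, of which 78 were measured and 24 of these were dim by their mean. In Matrigel against plastic, 9 were higher and 9 lower, beside 4.52% and 5.85% of all genes. In collagen against plastic, 12 were higher and 5 lower, beside 2.95% and 3.17%. In Matrigel against collagen, 1 was higher and 4 lower, beside 1.21% and 1.45%. The counts by role below stand beside the same shares. This list too was chosen with earlier results of these data known, so the counts are no test of it. In all, 23 genes passed in at least 1 comparison. The counts fell to 11 in Matrigel against plastic without Matrigel replicate 1 and to 10 in collagen against plastic without plastic replicate 1. In Matrigel against collagen, leaving out collagen replicate 2 brought the count to 0 in limma, with 17 genes at an unadjusted p under 0.05. Leaving out collagen replicate 1 gave 2 genes there, collagen replicate 3 or plastic replicate 2 gave 3, and either Matrigel array or plastic replicate 1 gave 1.

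Of 20 other ligand genes measured, 12 were dim, and 2 passed on each matrix, both lower than on plastic, beside 10.4% of all genes past the threshold on Matrigel and 6.12% on collagen. Inhbb, which encodes the subunit of activin B, read 7.75, 7.88, 8.09 and 7.82 on plastic, 7.12, 7.27 and 6.61 on collagen, and 6.33 and 6.40 on Matrigel. It was thus lower on every matrix array than on any plastic array, with a difference of -1.52 ± 0.17 on Matrigel (SE, limma adjusted p = 0.00154) and -0.88 ± 0.15 on collagen (adjusted p = 0.0110), and both calls held in every alternative. The activin subunit genes Inhba and Inhbb therefore had opposite signs on collagen, although the Inhba difference missed the threshold in the fit without the letter. Gdf10, a BMP3-like ligand, fell to means below the dim level on both matrices, by at least 1.78 on Matrigel (adjusted p = 0.00475) and at least 1.82 on collagen (adjusted p = 0.00336). Single arrays lay just above that level, collagen replicates 1 and 2 at 4.36 and 4.31 and Matrigel replicate 2 at 4.44. Gdf2, which encodes BMP9, passed in Matrigel against collagen (adjusted p = 0.0397) but was dim on all surfaces, so that no fold is given.

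Of 12 other extracellular modulators measured, 1 was higher and 4 were lower on Matrigel than on plastic. Nog encodes noggin, a BMP antagonist. It read 6.13, 5.63, 5.70 and 6.44 on plastic, 7.32, 7.11 and 7.79 on collagen, and 7.67 and 6.97 on Matrigel, all above plastic. It was higher by 1.44 ± 0.26 on collagen (SE, limma adjusted p = 0.0124) and by 1.34 ± 0.29 on Matrigel (adjusted p = 0.0213). The collagen call was lost without collagen replicate 3 (adjusted p = 0.0501) and the Matrigel call without Matrigel replicate 1 (0.162). Nog thus rose on Matrigel where Grem1, also a BMP antagonist, fell. Chrdl1, a chordin-like BMP binder, was lower on collagen by at least 1.08 (adjusted p = 0.00936) and fell by 1.12 ± 0.25 on Matrigel (adjusted p = 0.0245), and the Matrigel call was lost without Matrigel replicate 1 or plastic replicate 1.

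The follistatin-related genes were lower on Matrigel than on either other surface. Against plastic, Fstl1 fell by 0.54 ± 0.08 (SE, limma adjusted p = 0.00521). Fstl3, whose product binds activins as follistatin does, fell by 0.88 ± 0.15 (adjusted p = 0.00719). Matrigel minus collagen was -0.46 for Fstl1 (adjusted p = 0.0357) and -0.93 for Fstl3 (adjusted p = 0.0222). The calls against plastic held in every alternative. Those against collagen were lost for Fstl3 without collagen replicate 2 or 3 or either Matrigel array, and for Fstl1 without any collagen array, either Matrigel array or plastic replicate 1 or 2. Collagen minus plastic was -0.08 for Fstl1 (95% interval -0.25 to 0.08, adjusted p = 0.615) and 0.05 for Fstl3 (-0.24 to 0.34, adjusted p = 0.881). Tll1, a protease of the BMP1 family that cleaves chordin, was at least 0.643 lower on Matrigel than on plastic (adjusted p = 0.0107), and the call was lost without Matrigel replicate 2 (adjusted p = 0.0744). With the letter as a fixed block, Tll1 also passed in collagen against plastic (adjusted p = 0.0152), where it missed in the fit without the letter (0.0935).

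Of 15 receptor and co-receptor genes measured, 4 were higher and 1 was lower on collagen, and 2 were higher and 1 was lower on Matrigel. Bambi, a decoy receptor without a kinase domain that is itself induced by BMP and TGF-beta signalling, read 4.98, 4.70, 4.78 and 5.49 on plastic, 7.31, 7.02 and 6.72 on collagen, and 6.07 and 5.87 on Matrigel. None of the groups overlapped. It was higher by 2.03 ± 0.20 on collagen (SE, limma adjusted p = 0.000856), which held in every alternative. It was higher by 0.98 ± 0.23 on Matrigel (adjusted p = 0.0306), a call lost without collagen replicate 2, either Matrigel array or plastic replicates 1, 2 or 3 (adjusted p between 0.0544 and 0.171).

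Bmpr2, the main type II BMP receptor, was higher by 0.53 ± 0.08 on collagen (SE, limma adjusted p = 0.00582) and by 0.57 ± 0.09 on Matrigel (adjusted p = 0.00595), kept in every alternative. Acvrl1, the type I receptor ALK1, was lower on both, with a difference of -0.51 ± 0.10 on collagen (adjusted p = 0.0186) and -0.90 ± 0.11 on Matrigel (adjusted p = 0.00223). The collagen call of Acvrl1 was lost without collagen replicates 1 or 2 or plastic replicates 1, 2 or 4 (0.0527 to 0.0660). Bmpr1b, a type I BMP receptor, was higher on collagen by 1.22 ± 0.28 (adjusted p = 0.0388), and Acvr1, the type I receptor ALK2, by 0.41 ± 0.09 (adjusted p = 0.0347). Bmpr1b lost that call without any collagen or Matrigel array or plastic replicates 1 or 2, and Acvr1 without collagen replicates 2 or 3, either Matrigel array or plastic replicates 1, 2 or 3. The type I receptors Bmpr1a and Acvr1b and the type II receptor Acvr2a did not pass in any comparison, with differences between -0.34 and 0.41. Acvr2b was dim on all surfaces and did not pass.

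**Figure D4:**
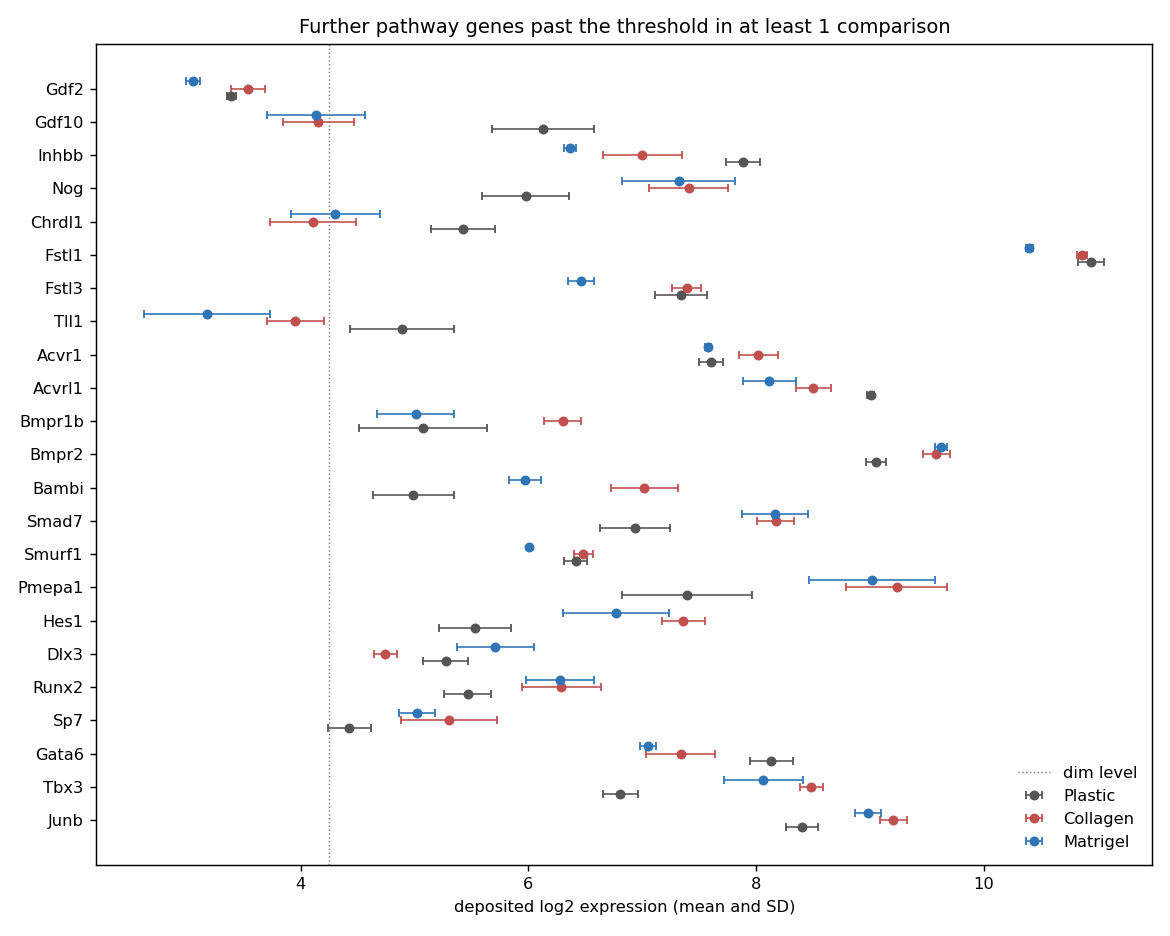
Mean log2 intensity with SD (whiskers) on plastic (n = 4), collagen (n = 3) and Matrigel (n = 2) for the 23 other pathway genes past the threshold in at least 1 comparison, 1 row per gene, with the dim level of 4.25 as a dotted line. The plastic mean lies to the left of both matrix means for Bambi, Smad7, Nog, Hes1, Tbx3 and Pmepa1 and to the right of both for Inhbb, Gdf10, Chrdl1 and Gata6.

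Of the SMADs that carry the signal, none passed in the main fit, over all genes and without the letter. Smad1, Smad2, Smad4 and Smad5 did not pass in any comparison of that fit, and their differences lay between -0.30 and 0.39. Smad3 was -0.55 on collagen against plastic (limma adjusted p = 0.125) and Smad9 was 0.38 (adjusted p = 0.0507). With the letter as a fixed block, both passed in that comparison (adjusted p = 0.0404 for Smad3 and 0.0295 for Smad9). Smad9 also passed there in some fits without the letter, as with each array re-centred on its median (adjusted p = 0.0211). In Matrigel against plastic, Smad5 passed with quantile normalization applied again (adjusted p = 0.0271). Smad1 passed there without plastic replicate 3 (adjusted p = 0.0421).

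Among the intracellular inhibitors, Smad7 and Pmepa1 were higher on both matrices. Smad7, the inhibitory SMAD that acts on both branches, read 6.98, 6.82, 6.61 and 7.34 on plastic, 8.03, 8.14 and 8.35 on collagen, and 8.37 and 7.96 on Matrigel, all above plastic. It was higher by 1.24 ± 0.18 on collagen (SE, limma adjusted p = 0.00459) and by 1.23 ± 0.20 on Matrigel (adjusted p = 0.00671), the latter lost without Matrigel replicate 1 (0.0649). Smad6, the inhibitory SMAD of the BMP branch, did not pass in the same comparisons. Pmepa1, which encodes a membrane protein that holds back SMAD2 and SMAD3, was higher by 1.84 ± 0.34 on collagen (adjusted p = 0.0149) and by 1.63 ± 0.39 on Matrigel (adjusted p = 0.0319). Its collagen call was lost without collagen replicates 2 or 3 or plastic replicate 1, and its Matrigel call without collagen replicate 2, Matrigel replicate 1 or plastic replicates 1 or 3. Smurf1, the ubiquitin ligase that degrades BMP SMADs, was lower on Matrigel, with a difference of -0.41 ± 0.08 from plastic (adjusted p = 0.0176) and -0.48 ± 0.09 from collagen (adjusted p = 0.0326). Either Matrigel array decided both Smurf1 calls, and the one against collagen was also lost without collagen replicates 2 or 3 or plastic replicates 1 or 4.

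Of 19 further target genes measured, 5 were higher and 1 was lower on collagen, and 4 were higher and 1 was lower on Matrigel. Tbx3, a T-box repressor, read 6.79, 6.90, 6.60 and 6.94 on plastic, 8.42, 8.60 and 8.43 on collagen, and 8.31 and 7.82 on Matrigel. It was higher by 1.67 ± 0.13 on collagen (SE, limma adjusted p = 0.000297) and by 1.26 ± 0.15 on Matrigel (adjusted p = 0.00167), kept in every alternative. Hes1, a Notch and BMP target, was higher by 1.83 ± 0.21 on collagen (adjusted p = 0.00156) and by 1.24 ± 0.24 on Matrigel (adjusted p = 0.0130). Junb, a component of AP-1, was higher by 0.81 ± 0.10 on collagen (adjusted p = 0.00209) and by 0.58 ± 0.11 on Matrigel (adjusted p = 0.0130). The Matrigel call of Hes1 was lost without Matrigel replicate 1 (adjusted p = 0.102) and that of Junb without Matrigel replicate 2 (0.0791).

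Lineage transcription factors of the list passed as well. Runx2, the master regulator of bone formation, was higher by 0.82 ± 0.18 on collagen (SE, limma adjusted p = 0.0326) and by 0.81 ± 0.21 on Matrigel (adjusted p = 0.0409). Sp7, which encodes osterix, was higher by 0.87 ± 0.19 on collagen (adjusted p = 0.0298). Leaving out any collagen or any plastic array ended the Runx2 call on collagen, and leaving out any plastic or Matrigel array, or collagen replicate 1 or 2, ended that on Matrigel. The Sp7 call was lost without collagen replicate 1 or any plastic array. Gata6, a mesoderm and endoderm transcription factor, was lower on both, with a difference of -0.80 ± 0.15 on collagen (adjusted p = 0.0160) and -1.08 ± 0.17 on Matrigel (adjusted p = 0.00595), and the collagen call was lost without collagen replicates 1 or 3 or plastic replicate 1. Dlx3, a homeobox gene, was higher on Matrigel than on collagen by 0.97 ± 0.17 (adjusted p = 0.0256), a call lost without any collagen array, Matrigel replicate 2 or plastic replicate 1.

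The genes whose values followed each changed gene most closely were found by the root mean square (RMS) difference over the 9 arrays after each gene was centred on its mean. This is a description of 9 points that share surfaces and arrays, and a gene with no variation at all would lie at the gene's own RMS deviation. For Bmp6, with an own RMS of 1.22, they were Itgbl1 (0.27), Ackr3 (0.35) and Igfbp6 (0.35). For Bmp2 (own RMS 0.74) they were Tbx3 (0.19), itself on the list of targets, Tmem26 (0.21) and Ptges (0.23). For Id2 (0.57) they were Rin2 (0.10), Npy1r (0.16) and Pla2g15 (0.17). For Grem1 (0.66) they were Gpc3 (0.19), Myl9 (0.21) and Nr4a3 (0.25), for Fst (0.44) Frk (0.14), Lrfn3 (0.16) and Pcdh18 (0.16), and for Id1 (0.44) Adra1d (0.18), Lce1e (0.19) and Rxra (0.20).

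Some markers of stellate cells and of other cell types differed between the surfaces alongside the results above. The marker counts stand beside 4.52% of all genes higher and 5.85% lower in Matrigel against plastic. In collagen against plastic these shares were 2.95% and 3.17%. Of 19 stellate and fibroblast markers, 4 (Gfap, Ngfr, Rgs5 and Reln) were dim on all surfaces. On Matrigel 15 of the 19 did not pass against plastic, and 4, Des, Tagln, Col3a1 and Lum, were lower, with a Des difference of -1.93 ± 0.13 (SE, limma adjusted p = 0.000208). The summed linear level of the list was 44858 to 47296 on plastic, 42805 to 50160 on collagen and 35975 to 41034 on Matrigel. On collagen 17 of the 19 did not pass against plastic, Des was lower (difference -0.77 ± 0.12, adjusted p = 0.00580), and Postn, which encodes periostin, was higher (2.29 ± 0.39, adjusted p = 0.00962). The part of these markers in the differences of the 10 genes on Matrigel or on collagen was not tested.

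The lists of other cell types differed in how many of their markers passed. Of all genes, 10.4% passed in Matrigel against plastic, 4.52% higher and 5.85% lower, and 6.12% passed in collagen against plastic. Of 14 measured islet markers, 8 passed in Matrigel against plastic, all higher, among them Ins1, Ins2 and Iapp, and their summed linear level was 1164 to 3849 on plastic, 2076 to 4464 on collagen and 5362 to 11588 on Matrigel. Of 17 acinar markers, 10 were dim on all surfaces and 2, Ctrb1 and Cpa1, were higher on Matrigel, with sums of 206 to 242, 213 to 288 and 505 to 1798 in the same order. Of 19 macrophage and leukocyte markers, 2, Itgam and Laptm5, were higher on Matrigel than on plastic, with sums of 2728 to 6650, 2917 to 5280 and 6846 to 8989. On Matrigel replicates 1 and 2 the islet sum was 11588 and 5362, and Bmp2 read 5.23 and 4.17. A link between them was not tested. Of 10 duct and epithelial markers, 0 passed in limma on Matrigel against plastic (4 at an unadjusted p under 0.05), with sums of 112 to 122, 113 to 123 and 121 to 228. Of 9 endothelial markers, Tie1 was higher and Egfl7 lower on Matrigel than on plastic, with sums of 1468 to 1530, 1421 to 1558 and 1545 to 1831. Of 5 mesothelial markers, Wt1 was lower than on plastic on both Matrigel and collagen, with sums of 360 to 464, 208 to 240 and 218 to 256. Of 3 Schwann and glial markers, S100b was higher on Matrigel than on plastic, with sums of 36 to 44, 40 to 52 and 54 to 63. In collagen against plastic, limma called 0 of the islet, acinar and macrophage markers (0, 1 and 2 at an unadjusted p under 0.05). No marker was at 0, since the lowest deposited log2 value was 0.98. The part of other cell types in the differences of the 10 genes was not tested.

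Over all genes, the 9 arrays had medians between 5.30 and 5.38, and correlations of 0.991 to 0.996 within a surface and 0.975 to 0.989 between surfaces. Arrays have no read depth, and their number limits the precision.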

How the data were processed

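RNA of cells on plastic, collagen I or Matrigel was read on 9 Affymetrix Rat Gene 1.0 ST arrays. The authors deposited log2 values summarised with RMA, per the submitters' processing notes; RMA as usually run corrects background, normalizes by quantiles and summarises probes. For the software version, genome build and filters, the sources used here name none: they are not given. Of 29215 rows, 15310 carry 1 gene symbol in the platform annotation, 323 several and 13582 none. The brightest single-symbol row by mean stood for each of 14506 genes. Groups came from the surface in the labels.

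From these values limma 3.58.1 (R 4.3.3, lmFit and eBayes, 6 residual degrees of freedom) tested the 3 pairs of surfaces in 1 fit, adjusted by Benjamini-Hochberg over all genes at 0.05. A gene or group mean under log2 4.25 (the 40th percentile of gene means) was called dim, and a change from or to it is a bound. The bound has no allowance for error, and the p-value beside it tests the fitted difference. All 10 members are named, together with every listed pathway gene past the threshold in any comparison, 7 receptor and 7 SMAD genes whatever their values, and the 3 nearest genes to each changed member. The members and lists were chosen with earlier results of these data known. The motifs TATAAA and CCAAT were added after the sequences were seen. The fits were tested on simulated data.

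As a pairing check, deviations from the surface mean were correlated over genes. Collagen and plastic arrays of the same title letter gave r of 0.196 (A), 0.234 (P) and 0.269 (Z), all above 0.1, so the letters were taken as pairing these arrays, although collagen A correlated with plastic S at 0.243. Matrigel and plastic gave -0.131 (A) and 0.406 (S), and were not taken as paired. Alternatives were other scalings, filters, row choices, variance models, array weights, letter blocks and leaving out each array. A fit that kept just plastic replicates 1 and 3 of the plastic arrays, whose letters Matrigel also has, was added after seeing the data.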

Additional observations from a re-analysis of the deposited data

Results flagged for a closer look

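Of 43 genes examined over the 4 plastic arrays, 2 had an array far from the other 3 by Dixon's criterion at 95%, and about 1 in 20 such groups is marked by chance. Gdf2 read 3.45 on plastic replicate 2 and 3.37 on each of the others, all below the dim level. Sp7 read 4.15 on plastic replicate 1 and from 4.48 to 4.54 on the others. The collagen against plastic difference of Sp7 includes that array.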

How the results depend on the processing

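No called value changed sign. Over 547 values of the 10 members under an alternative, 493 stayed on the same side of the threshold, 47 lost a call and 7 gained one. Of 40 called pathway values, 17 kept their call throughout. Bmp6 on both matrices against plastic, and Bmp2 and Id2 on collagen, kept theirs in every alternative run. In Matrigel against collagen, fitted on the 5 arrays of these surfaces alone, limma called 0 genes, 0 members and 0 pathway genes, beside 2094, 4 and 16 at an unadjusted p under 0.05. Array weights gave 257 genes there. With the title letter as a fixed block it gave 66 genes, 0 members and 0 pathway genes (2403, 4 and 19 unadjusted). With plastic replicates 1 and 3 as the sole plastic arrays, a choice made after seeing the data, Matrigel against plastic gave 628 genes, 1 member and 11 pathway genes. Leaving out 1 array at a time gave 552 to 870 genes, 3 to 4 members and 10 to 17 pathway genes in collagen against plastic. The same gave 68 to 352, 0 to 2 and 0 to 5 in Matrigel against collagen, and 759 to 1461, 1 to 4 and 11 to 20 in Matrigel against plastic. The cause of these changes was not tested. Where 1 Matrigel array remained, it was assumed to vary like the other groups.

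The letter as a fixed block, which the correlation check bears out only for collagen and plastic, brought the members called there to 5, with Inhba at 1.76. In the comparisons not taken as paired, it brought Fst past the threshold on Matrigel against plastic (0.70, limma adjusted p = 0.0410). It ended the Id1 call there (0.0941) and, against collagen, those of Bmp6 (0.0520), Grem1 (0.0698) and Id2 (0.108). As a random block (correlation 0.153), it brought Id2 past the threshold on Matrigel against plastic (adjusted p = 0.0419). The random block left the members called in collagen against plastic at 4, without Inhba.

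The share of calls that were higher was 43.6%, 48.2% and 45.5% in the 3 comparisons, and other scalings moved it by under 10 points and the median of all genes by under 0.1. Means of 2 arrays on Matrigel, and levels near the dim level for Bmp2 and Bmp4, limit the precision.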
